A study of Mus musculus with 6 samples.

Results

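The 9 genes described here, Sox17, Sox7, Gata4, Gata6, Foxa2, Hnf4a, Pdgfra, Dab2 and Cxcr4, are markers and regulators of the endoderm of the early mouse embryo. They were chosen by name, with earlier results of these data known, and all 9 had a row among the 27179 gene identifiers of the count table. The study sequenced poly(A) RNA from mouse embryonic stem cells with the ES-E14TG2a genetic background. All cells carried a FLAG-tagged Trim71, an RNA-binding protein, either with its normal sequence (WT, 3 libraries) or with the amino-acid change R783H (R783H, 3 libraries), in a study of a hydrocephalus-causing mutation. Cultures of both groups grew on gelatin in 2i medium with leukemia inhibitory factor and some serum; 2i combines the GSK3 inhibitor CHIR99021 with the MEK inhibitor PD0325901. The labels give no age, treatment or time that differs between the groups, and do not say whether the tagged alleles are on 1 or both chromosomes. They also leave out whether the letters A, B and C are clones, cultures or library preparations, so p-values measure the spread between these libraries only.

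Primitive endoderm is the layer of the blastocyst that gives rise to the yolk sac, and it separates from the epiblast when FGF4 signals through FGF receptors, MEK and ERK to raise GATA6 where NANOG falls. GATA6 and GATA4 are zinc-finger transcription factors of this lineage, joined by the SOX factors SOX17 and SOX7, the receptor PDGFRA and the endocytic adaptor DAB2. Definitive endoderm forms later, at gastrulation, under Nodal signalling, and shares SOX17 with the first lineage, while FOXA2 and the chemokine receptor CXCR4 are among its usual markers. HNF4A is a nuclear receptor of visceral endoderm and later of liver and gut. The MEK inhibitor of 2i medium blocks a step of the route by which stem cells enter primitive endoderm.

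Total counts ran from 27807385 to 29079670 in R783H and from 20894277 to 25174121 in WT, so each R783H library was deeper. Values below are raw counts, or CPM, the usual count per library size, here after TMM scaling. The detection floor of 3 counts in a library corresponds to 0.0998 to 0.149 CPM and covers counting error only. Differences were tested over all 14199 genes that passed a low-count filter with edgeR's quasi-likelihood test and Benjamini-Hochberg adjustment, with calls at an adjusted p under 0.05. The stem cell label was checked first. The 6 stem cell markers Pou5f1, Sox2, Nanog, Esrrb, Zfp42 and Sall4 summed to 4061 to 4197 CPM for R783H against 4678 to 4707 CPM for WT.

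RefSeq (GRCm38.p6, the assembly behind mm10, which the submitters' processing notes name) gave windows from 250 bases before to 50 bases after a transcription start for 5 of the 9 genes, in 9 windows. No windows of Sox17, Sox7, Gata4 and Gata6 were searched, so the member counts below cover the other 5 genes only. This does not show that RefSeq lacks a start for the genes left out. Short core letters of 3 factor families were searched on both strands, namely GATAA for GATA factors, ACAAT for SOX factors and TGTTTAC for forkhead factors. The windows of Hnf4a and Cxcr4 are shown because these are the called members that have one, with the letters that matched a core in capitals. Hnf4a has an upstream start, whose window is chr2:163506607-163506906 on the plus strand, and Cxcr4 has the window chr1:128592250-128592549 on the minus strand.
Hnf4a, upstream start: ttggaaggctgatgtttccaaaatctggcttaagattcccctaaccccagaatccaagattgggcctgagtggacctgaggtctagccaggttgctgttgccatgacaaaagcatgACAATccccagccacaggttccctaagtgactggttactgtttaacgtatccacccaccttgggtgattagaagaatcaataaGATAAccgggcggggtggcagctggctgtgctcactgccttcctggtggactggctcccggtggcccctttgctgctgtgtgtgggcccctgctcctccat
Cxcr4: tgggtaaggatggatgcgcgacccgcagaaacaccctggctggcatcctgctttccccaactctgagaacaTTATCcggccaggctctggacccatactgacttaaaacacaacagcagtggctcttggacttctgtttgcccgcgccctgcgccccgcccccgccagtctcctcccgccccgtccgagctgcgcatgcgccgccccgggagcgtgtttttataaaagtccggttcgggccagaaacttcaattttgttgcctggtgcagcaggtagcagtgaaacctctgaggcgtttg
In the Hnf4a window the GATAA letters began 51 bases before the start and the ACAAT letters 134 bases before it, and in the Cxcr4 window TTATC, the reverse complement of GATAA, began 179 bases before it. The window at the downstream Hnf4a start held none of the 3 cores. Over the members, 4 of 9 windows held GATAA, 1 held ACAAT and 0 held TGTTTAC, and the 3 cores did not overlap. Of all 32851 windows of this length, 25.4% held GATAA, 31% held ACAAT and 3.65% held TGTTTAC. A match is a string of letters, not a shown binding site, and gene-level counts do not tell the Hnf4a starts apart.

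All 9 genes were low in these cells. Per kilobase of the longest GENCODE transcript, the mean level in WT ran from 1.96 CPM per kb for Hnf4a to 0.0590 for Foxa2, where Pou5f1 stood at 750 ± 23.3 and Nanog at 284 ± 5.27 CPM per kb (SD, n = 3). In WT the order by level per kb was Hnf4a, Gata4, Cxcr4, Dab2, Sox7, Pdgfra, Sox17, Gata6 and Foxa2. The first 3 did not overlap with their neighbours in any library, and from Dab2 downwards each gene overlapped with the next. In R783H the order was Hnf4a, Gata4, Cxcr4, Dab2, Sox17, Pdgfra, Gata6, Foxa2 and Sox7. There Dab2 overlapped with Sox17, Pdgfra with Gata6 and Foxa2 with Sox7, and the other neighbours stayed apart. Sox7 thus stood above Pdgfra and Sox17 in WT and at the end of the order in R783H.

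**Figure D1:**
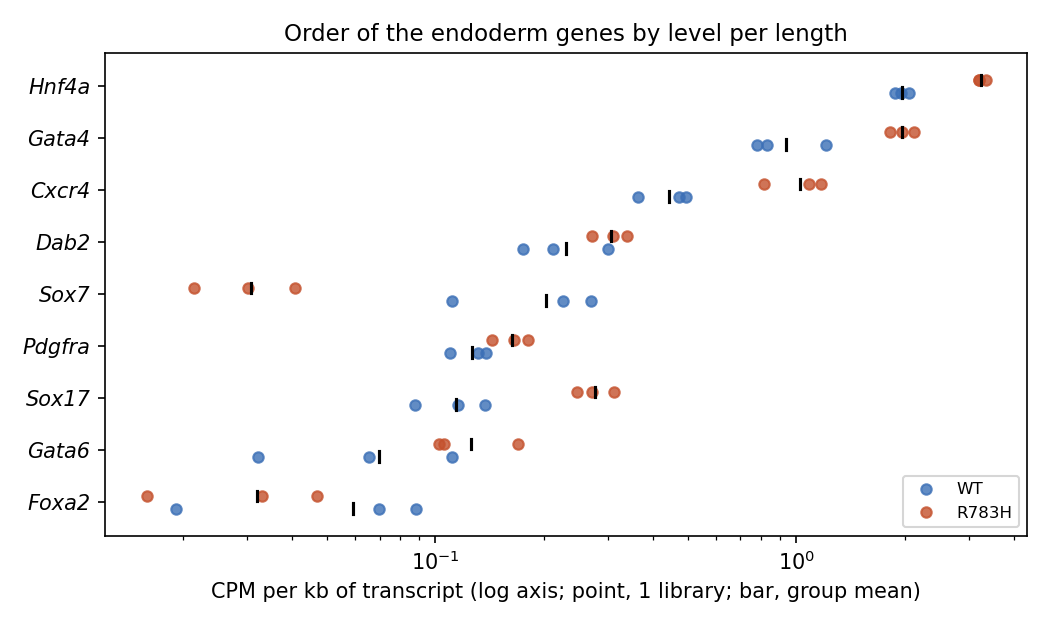
Level of each endoderm gene in CPM per kb of its longest transcript, on a log axis, with a point for each library and a bar for the group mean. Hnf4a and Gata4 are highest in both groups, and Sox7 is the gene whose R783H points lie furthest to the left of its WT points.

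Of the 9 genes, 7 passed the low-count filter. Among these 4 were called higher in R783H (Sox17, Cxcr4, Gata4 and Hnf4a), 0 were called lower and 3 (Gata6, Dab2 and Pdgfra) were not called. Over all tested genes, 64.5% were called, 33.5% higher and 30.9% lower, so a call as such is common in this comparison. Among the 6002 tested genes that averaged under 15 CPM, as the 7 members did, 54% were called and 33.6% were called higher. The filter bears on this split. Sox17 and Gata6 passed it through the 3 R783H libraries, with 1 WT library over its limit, while Sox7, over the limit in 2 WT libraries and 0 R783H libraries, and Foxa2, over it in 0 libraries, did not pass. With no filter all 9 genes were tested, 4 were called higher and 1, Sox7, lower, where 24.7% of the 20190 genes with a count were called higher and 21.8% lower. The median log2 fold change of the 9 genes was then 0.73, with 7 values above 0 and 2 below, beside 0.05 over all genes with a count. The 7 members that passed the filter all had log2 fold changes above 0, from 0.37 to 1.29. A looser threshold, an unadjusted p under 0.05 in edgeR, could therefore give no lower call, and gave 0. Limma, on the same 7 members, called 0 lower, and DESeq2, which tested Sox7 as well, called 1. With every library thinned to the smallest total, 6 members were tested and 4 were called higher. Sox7 missed the filter, and its counts were lower in every R783H library. Because the RNA came from whole cultures, a change in the number of expressing cells and a change in RNA per cell cannot be told apart.

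**Figure D2:**
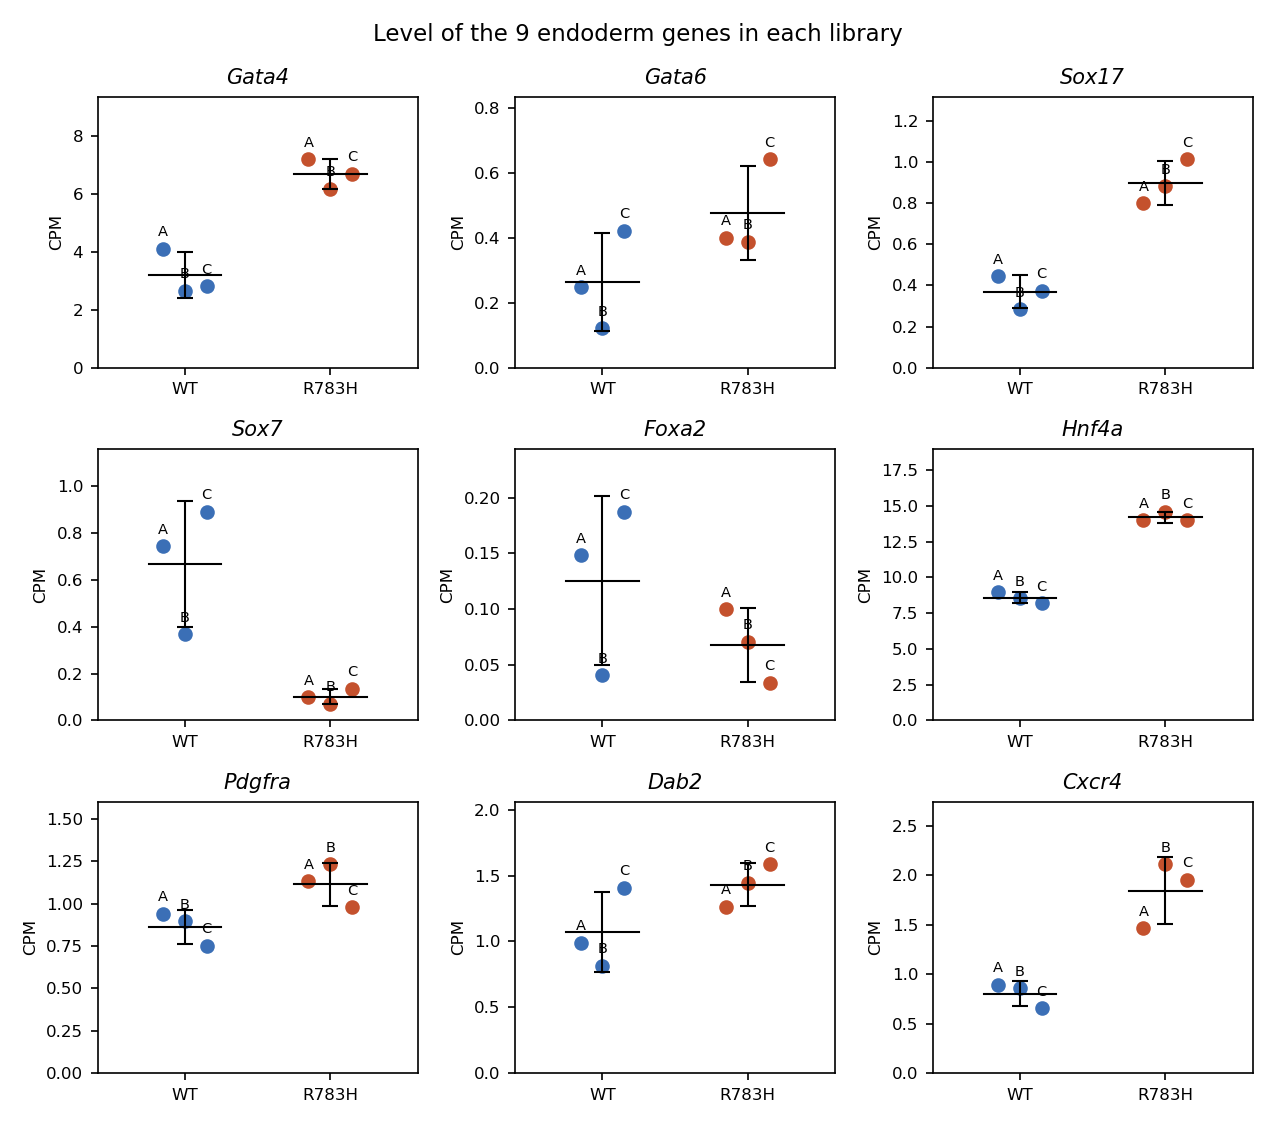
CPM of each of the 9 genes in the 3 WT and 3 R783H libraries, each axis starting at 0, with the letter of each library, a line for the group mean and bars for the SD. The groups do not overlap for Gata4, Sox17, Hnf4a, Cxcr4 and Pdgfra, which are higher in R783H, nor for Sox7, which is lower.

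The GATA factors differed in how well they were measured. Gata4 (Entrez 14463, chromosome 14, 63198914 to 63271712), which encodes a zinc-finger activator of endoderm genes, was counted 216, 175 and 198 times in the R783H libraries A, B and C, against 83, 65 and 60 times in the WT libraries A, B and C. Each R783H library was above each WT library, and WT A was the highest of its group. The level was 6.68 ± 0.510 CPM for R783H against 3.19 ± 0.800 CPM for WT (SD, n = 3). The difference was 1.08 on the log2 scale (SE 0.15; edgeR, adjusted p = 1.0e-04), and the call held under all 15 alternative settings. Gata6 (Entrez 14465, chromosome 18, 11052510 to 11085636), which encodes the factor that opens the primitive endoderm programme, was counted 12, 11 and 19 times in the R783H libraries A, B and C, against 5, 3 and 9 times in the WT libraries A, B and C. The groups overlapped, since the 9 counts of WT C gave 0.422 CPM, above R783H A at 0.399 and R783H B at 0.388. Its log2 fold change was 0.87 (SE 0.45) and did not pass (edgeR, adjusted p = 0.107). The summed counts of 42 and 17 gave a ratio of R783H to WT of 1.85 per library size, with an exact 95% binomial interval of 1.03 to 3.47 that covers counting error only, not the spread between libraries. Without WT C the value was 1.39 and was called (edgeR, adjusted p = 0.0446), without WT B it was 0.49 and without R783H C 0.59, neither called.

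The SOX factors of the same subfamily, which bind closely related DNA sites through an HMG box, differed between the groups in opposite directions. Sox17 (Entrez 20671, chromosome 1, 4490928 to 4497426), a marker of primitive and definitive endoderm, was counted 24, 25 and 30 times in the R783H libraries A, B and C, against 9, 7 and 8 times in the WT libraries A, B and C. These values did not overlap, at 0.897 ± 0.108 CPM against 0.369 ± 0.0803 CPM (SD, n = 3). Sox17 rose by 1.29 on the log2 scale (SE 0.29; edgeR, adjusted p = 0.00218). The call held under the 14 alternative settings that tested the gene. Sox7 (Entrez 20680, chromosome 14, 63943706 to 63950732), a later primitive endoderm factor that endothelial cells also express, was counted 3, 2 and 4 times in the R783H libraries A, B and C, against 15, 9 and 19 times in the WT libraries A, B and C. All R783H libraries were at or near the floor of 3 counts, and all WT libraries were above it. The sums of 9 and 43 counts, per library size, were 6.37-fold lower in R783H, with an exact 95% binomial interval of 3.06 to 14.9 that covers counting error only. The filter asked for 0.378 CPM of the unscaled total in 3 libraries, which WT B narrowly missed, so Sox7 entered no main test. An exact two-sided permutation test of its CPM gave p = 0.1, the smallest that 3 against 3 libraries allow. Without the low-count filter its log2 fold change was -2.62 (SE 0.52; edgeR, adjusted p = 1.35e-04), and with DESeq2 it was -2.72 with an adjusted p of 6.20e-04. Sox7 was also called lower in the 4 fits that left out a library and tested it, at -2.94 to -2.45. In those fits it passed the filter only through WT libraries, where it is high, so these calls add no support. Whether the change in Sox17 differs from that in Sox7 was not tested directly.

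FOXA2 and HNF4A regulate genes of gut, liver and visceral endoderm. Foxa2 (Entrez 15376, chromosome 2, 148042877 to 148046969) was counted 3, 2 and 1 times in the R783H libraries A, B and C, against 3, 1 and 4 times in the WT libraries A, B and C. These counts lie at or under the floor in 5 of 6 libraries and overlap, so no difference was detectable at this depth. Its summed counts gave a ratio of R783H to WT of 0.563 per library size, with an exact 95% binomial interval of 0.161 to 1.85. Hnf4a (Entrez 15378, chromosome 2, 163506811 to 163572907) was the best measured member, counted 420, 414 and 414 times in the R783H libraries A, B and C, against 181, 209 and 175 times in the WT libraries A, B and C. The spread within a group was small, at 14.2 ± 0.354 CPM for R783H against 8.56 ± 0.381 CPM for WT (SD, n = 3), and the groups stood well apart. Hnf4a rose by 0.73 (SE 0.08) on the log2 scale, a 1.66-fold increase (edgeR, adjusted p = 1.0e-05), and was called under all 15 alternatives.

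The cell-surface receptors gave 1 call. Cxcr4 (Entrez 12767, chromosome 1, 128588199 to 128592299), the receptor of the chemokine CXCL12, was counted 44, 60 and 58 times in the R783H libraries A, B and C, against 18, 21 and 14 times in the WT libraries A, B and C. Its level was 1.85 ± 0.340 CPM against 0.801 ± 0.127 CPM (SD, n = 3), with R783H A the lowest of its group and still above every WT library. Cxcr4 rose by 1.19 (SE 0.23) on the log2 scale (edgeR, adjusted p = 8.22e-04) and was called under all 15 alternatives. Pdgfra (Entrez 18595, chromosome 5, 75151322 to 75198206), the platelet-derived growth factor receptor that marks primitive endoderm precursors, was counted 34, 35 and 29 times in the R783H libraries A, B and C, against 19, 22 and 16 times in the WT libraries A, B and C. In CPM the lowest R783H library stood at 0.979 and the highest WT library at 0.941, so the groups did not overlap, as was the case for 68.1% of all tested genes. Its log2 fold change of 0.37 (SE 0.22) did not pass (edgeR, adjusted p = 0.167). At 6834 nt it has the longest transcript of the 9, and tested genes within 10% of that length had a median log2 fold change of 0.24. With an offset for transcript length and GC content its value was 0.11.

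DAB2 is a clathrin adaptor that endoderm cells use in endocytosis and in keeping their surface position. Dab2 (Entrez 13132, chromosome 15, 6299788 to 6440715) was counted 38, 41 and 47 times in the R783H libraries A, B and C, against 20, 20 and 30 times in the WT libraries A, B and C. WT C at 1.41 CPM lay above R783H A at 1.26 CPM, so the groups overlapped. The difference was 0.43 on the log2 scale (SE 0.23; edgeR, adjusted p = 0.129). Without WT C it was 0.67 and was called (edgeR, adjusted p = 0.0412), and without WT B it was 0.25. WT C was thus the library without which both Gata6 and Dab2 were called, and 6 of the 7 tested members were then called higher. Sox7 was not tested in that fit. In the main fit 33.5% of all tested genes were called higher, and the share without WT C is not given here.

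**Figure D3:**
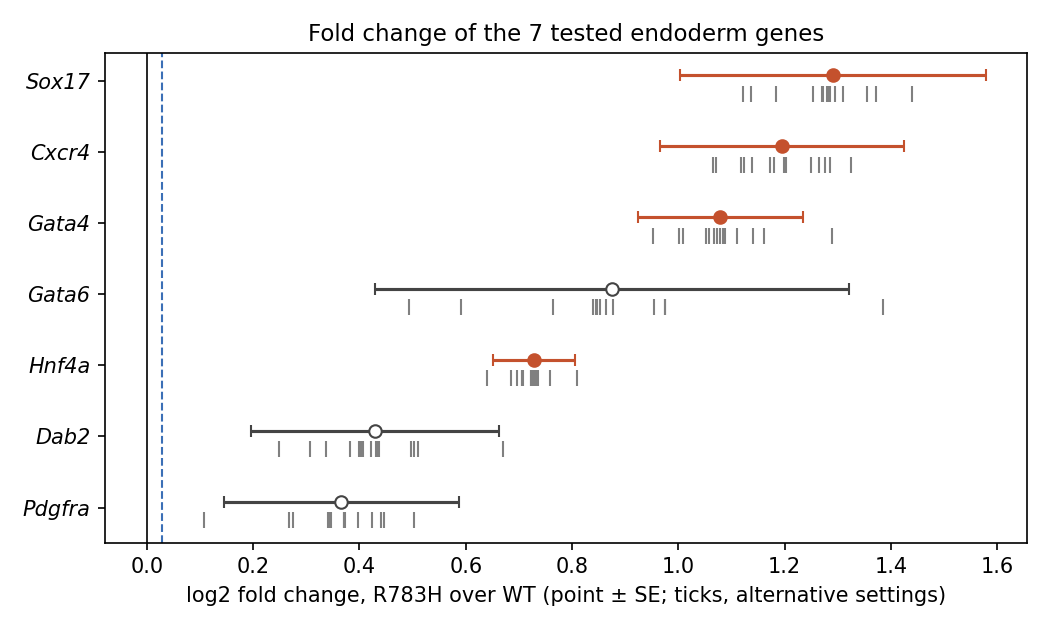
Log2 fold change of R783H over WT for the 7 tested endoderm genes, as a point with its SE, filled where called, with a grey tick for each alternative setting; the solid line marks 0 and the dashed line the median of all tested genes. Sox17, Cxcr4, Gata4 and Hnf4a keep to the right of 0.6 under every setting, and the ticks of Gata6 spread from 0.49 to 1.39.

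Exons of 4 members share sequence with another annotated gene, which matters because the use of strand in counting is not given in the sources used here. Sox17 overlaps the antisense processed transcript Gm37587, which was also its only match over at least 100 nt at 98% identity or more. Gata6 overlaps the antisense transcript 1010001N08Rik, Dab2 an antisense pseudogene, and Pdgfra 2 antisense genes and, on its own strand, a microRNA. Reads of these members could therefore hold reads of the partner. Gata4, Sox7, Foxa2, Hnf4a and Cxcr4 had no such overlap in GENCODE M21. Of the other genes named below, Otx2, Gata3, Fgfr2, Tfcp2l1 and Col3a1 overlap another annotated gene on the same strand. Col4a1 and Col4a2 overlap each other on opposite strands, and further genes named below overlap antisense genes.

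Other genes of the same lineages were then read from lists. Beside the calls in each list stand those over all tested genes, 33.5% higher and 30.9% lower. The list of further primitive and extraembryonic endoderm markers held 22 genes, of which 14 were tested, 8 rose and 4 fell, and the median log2 fold change was 0.63. Krt19, a keratin, rose by 1.32 (SE 0.22), from 1.53 ± 0.0815 to 3.82 ± 1.02 CPM (SD, n = 3). Lama1, a laminin chain of the basement membrane that parietal endoderm lays down, rose by 0.94 on the log2 scale (SE 0.05), with 138 ± 6.16 CPM in WT and 265 ± 4.89 CPM in R783H. Podxl, a cell-surface sialomucin, rose by 0.87 (SE 0.06) and Apoe, the lipid carrier, by 0.81 (SE 0.05). The 4 lower genes were Lamb1 (-0.66, SE 0.06), Col4a1 (-0.68, SE 0.10), Col4a2 (-0.54, SE 0.13) and Amn (-1.12, SE 0.35), named after their values were seen. The first 3 encode basement-membrane chains like Lama1, so that group was mixed: Lama1, Lamc1 (0.73, SE 0.04) and Nid1 (0.76, SE 0.05), the last 2 also picked with their values known, rose and Lamb1, Col4a1 and Col4a2 fell. With the offset for transcript length and GC content, Lama1, Lamc1 and Nid1 stood at 0.60, 0.45 and 0.54. Lamb1, Col4a1 and Col4a2 stood at -0.85, -0.89 and -0.69 with it. Stem cells also express basement-membrane genes. Adjusted p values of the 10 genes named so far from this list ran up to 0.0152 in edgeR, the highest being that of Amn. The call of Amn was lost with DESeq2 (adjusted p 0.0528), without R783H C (0.0538 in edgeR) and without WT B (0.0790 in edgeR). Some differentiated markers were close to absent. Afp, the yolk-sac serum protein, had 0 counts in all 6 libraries, Ttr, the thyroxine carrier, had 2 counts in R783H B and 0 elsewhere, and Apoa1 had at most 3 counts in a library. Lrp2 of the same list, named after its value was seen, was not absent. It averaged 8.85 CPM in R783H against 5.54 CPM in WT and rose by 0.67 (SE 0.09; edgeR, adjusted p = 7.2e-05).

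The list of definitive and anterior endoderm markers was more even. Of 18 genes 15 were tested, 6 were called higher and 3 lower, and the median of 0.08 was near the 0.03 of all tested genes. Calls over all tested genes were 33.5% higher and 30.9% lower. Otx2, a homeobox factor of anterior tissue that formative stem cells and visceral endoderm also express, went up by 2.04 on the log2 scale (SE 0.11), with 2.77 ± 0.292 CPM in WT and 11.4 ± 0.546 CPM in R783H (SD, n = 3). Prdm1, a transcriptional repressor of visceral endoderm and germ cell precursors, rose by 1.38 (SE 0.14). The lower genes were Mixl1 (-1.06, SE 0.24) and Eomes (-0.49, SE 0.07), regulators of mesendoderm at gastrulation, and Trh (-0.56, SE 0.06), which encodes a hormone precursor; Eomes and Trh were named after their values were seen. Adjusted p values of these 5 genes were at most 0.00241 in edgeR. Cer1, a secreted inhibitor from anterior endoderm, had 0 counts in every library, and Lhx1 had 1 count in all.

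Ligands, receptors and adaptors that act with the members numbered 25, of which 22 were tested, with 13 calls upwards, 6 downwards and a list median of 0.26. Shares over all tested genes were 33.5% higher and 30.9% lower. Fgf4, the ligand that directs cells to primitive endoderm, rose by 0.31 on the log2 scale (SE 0.04), with 271 ± 2.10 CPM in WT and 335 ± 8.08 CPM in R783H (SD, n = 3; edgeR, adjusted p = 4.54e-05). Its receptor Fgfr1 stood at 187 ± 3.48 CPM for R783H against 178 ± 1.55 CPM for WT and was not called (0.07, SE 0.04, edgeR adjusted p = 0.150), except with scaling by library size alone, at 0.15. Fgfr2, the FGF receptor enriched in primitive endoderm, was low, counted 15, 13 and 23 times in the R783H libraries A, B and C, against 18, 25 and 19 times in the WT libraries A, B and C. Its log2 fold change of -0.69 (SE 0.27) had an adjusted p of 0.0437 in edgeR, and the call was lost in 10 of 15 alternatives, with adjusted p up to 0.171.

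The growth factors of PDGFRA differed among themselves. Pdgfa fell by 0.20 (SE 0.04), from 102 ± 2.86 to 88.8 ± 1.41 CPM, and Pdgfb rose by 1.24 (SE 0.21), from 1.25 ± 0.333 to 2.99 ± 0.436 CPM (SD, n = 3). For CXCR4, the ligand gene Cxcl12 was nearly absent, counted 2, 1 and 10 times in the R783H libraries A, B and C, against 7, 3 and 7 times in the WT libraries A, B and C, and it was not tested. Ackr3, which encodes the other receptor of CXCL12, rose by 1.00 (SE 0.15), from 3.09 ± 0.130 to 6.17 ± 1.06 CPM (SD, n = 3), beside the 1.19 of Cxcr4. In the Nodal arm, 12 genes of the list were tested, 8 were called higher, 2 lower and 2 were not called. Among all tested genes 33.5% were called higher and 30.9% lower. Lefty1, a Nodal inhibitor and target, rose by 0.70 (SE 0.07) and Acvr2a, a Nodal and activin receptor, by 0.60 (SE 0.11). Adjusted p values of these 5 called genes (Pdgfa, Pdgfb, Ackr3, Lefty1 and Acvr2a) were at most 0.00195 in edgeR. The genes called lower were Foxh1 (-0.17, SE 0.06; edgeR, adjusted p = 0.0268) and Smad2 (-0.15, SE 0.05; edgeR, adjusted p = 0.0238), a DNA-binding partner and a signal transducer of the pathway, and the genes not called were the co-receptor gene Tdgf1 (0.00) and Smad4 (0.01), all 4 named after their values were seen. The call of Foxh1 was lost in 6 of 15 alternatives and that of Smad2 in 3.

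Relatives of the members in the same gene families were tested for 7 of 10 genes, with 2 calls upwards, 0 downwards and a list median of 0.32. Over all tested genes 64.5% were called, 33.5% higher and 30.9% lower. All 7 had log2 fold changes above 0, from 0.07 to 0.73, so an unadjusted p under 0.05 in edgeR could give no lower gene. DESeq2 and limma called 0 lower. Gata3, a trophoblast GATA factor, rose by 0.73 (SE 0.18) and Dab1, the reelin adaptor, by 0.35 (SE 0.08), with adjusted p values of 0.00349 and 0.00326 in edgeR. Of 12 naive pluripotency factors 3 were called higher and 4 lower, and their median was 0.00. Nanog, the factor that opposes GATA6, fell by 0.23 (SE 0.04), from 628 ± 11.7 to 535 ± 6.16 CPM (SD, n = 3; edgeR, adjusted p = 2.79e-04). Zfp42 fell by 0.36 (SE 0.04) and Sall4 fell by 0.36 (SE 0.05), while Prdm14 rose by 0.22 (SE 0.05), with adjusted p values of at most 0.00352 in edgeR. Pou5f1, the other lower gene and named after its value was seen, fell by 0.21 (SE 0.05) and lost its call with the length and GC offset. The other higher genes, named in the same way, were Tbx3 (0.20, SE 0.04), whose call was lost with that offset, and Tfcp2l1 (0.17, SE 0.05), which was called lower with it, at -0.18.

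**Figure D4:**
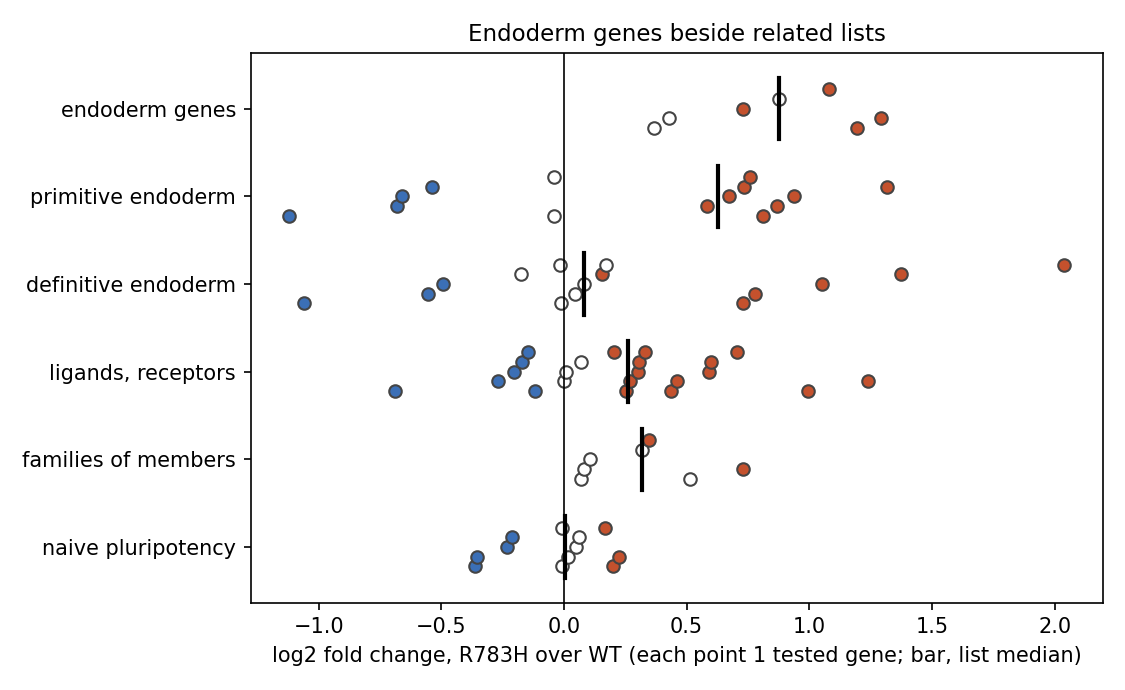
Log2 fold change of R783H over WT for every tested gene of the endoderm set and of the 5 related lists, red where called higher, blue where called lower and white where not called, with a bar at the list median. Sox7 and Foxa2, which missed the low-count filter and had values of -2.62 and -0.79 without it, are not drawn, so the endoderm row holds no point left of 0.

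Several members are also expressed in other cell types, and markers of those were read in the same libraries; their part in the members' differences was not tested. The 8 mesoderm markers, some of which share cells with Pdgfra or Cxcr4, summed to 7.05 to 7.61 CPM for R783H against 17.7 to 20.5 CPM for WT. In that list 3 of 4 tested genes were lower and 0 higher, with T at -1.89 (SE 0.10), and 5 of the 8 averaged under 1 CPM in both groups. Beside the calls in these marker lists, 33.5% of all tested genes were called higher and 30.9% lower. The 8 trophoblast markers summed to 47.3 to 52.4 CPM for R783H against 76.0 to 83.4 CPM for WT, with 2 higher and 3 lower of 5 tested, and Elf5 had 0 counts in R783H and 3 in all in WT. The 8 fibroblast markers, of interest since Pdgfra and feeder cells go together, summed to 7.60 to 8.63 CPM for R783H against 5.87 to 6.66 CPM for WT. Of these, Twist1 was higher (1.02, SE 0.18), Thy1 lower (-2.74, SE 0.35) and 2 others not called, while Col3a1, Dcn, Lum and Postn had at most 7 counts in a library. The 7 endothelial and blood markers summed to 99.6 to 109.9 CPM for R783H against 91.5 to 93.0 CPM for WT, nearly all of it Pecam1, which stem cells express as well. Of the 3 tested genes of this list, Pecam1 was higher (0.20, SE 0.05), Kdr lower (-0.39, SE 0.14) and Tek not called (-0.39, SE 0.17). Kdr averaged 2.25 CPM in R783H against 2.95 in WT, and Tek 1.56 against 2.05. Cdh5, the defining endothelial cadherin, had at most 3 counts in a library, Ptprc had 1 count in all and Hbb-bh1 had 0.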

How the data were processed

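The authors deposited a single table of raw counts of reads per gene, with Entrez Gene identifiers as names and a column per library; the counts are whole numbers with unequal totals. Per the submitters' processing notes, the build was mm10 and HISAT2, SAMtools and CASAVA 1.4 were used, with no role given. The counting tool, annotation and use of strand are not given in the sources used here. All columns matched a title, leaving 0 unassigned.

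Symbols and coordinates came from RefSeq (GRCm38.p6), which named 25275 of 27179 identifiers, and transcript length, GC content and exons from GENCODE M21. The tools were DESeq2 1.42.0, limma 3.58.1 and edgeR 4.0.16 in R 4.3.3. Genes with low counts were removed by filterByExpr (minimum count 10, minimum total 15), and the rest were scaled with TMM and fitted with group as the single term over all 6 libraries; the quasi-likelihood test was adjusted by Benjamini-Hochberg over 14199 genes. SE was derived from the log2 fold change and the F statistic. The steps were also run on counts simulated from the fitted spread with few changed genes. That run does not cover data in which 64.5% of tested genes were called. The common biological coefficient of variation was 5.45%.

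Members and lists were chosen with earlier results of these data known. All 9 members are named. From each list, at most 4 called genes with the largest changes and a level of at least 1 CPM in the higher group are named, and also Fgf4, Fgfr1, Fgfr2, Pdgfa, Cxcl12, Ackr3 and Nanog. A gene that this rule selects is not reported here. The 15 alternatives comprised other scalings, filters, tests, equal depth, a length and GC offset, a replicate block and each library left out.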

Additional observations from a re-analysis of the deposited data

How the results depend on the processing

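Sox17, Cxcr4, Gata4 and Hnf4a kept direction and call in each of the 15 alternatives that tested them; requiring at least 10 counts in every library left 5 members tested and 3 called, without Sox17. The number of members called higher ran from 4 to 6 with each library left out, the 6 coming without WT C, where Sox7 was not tested. The number called lower was 0 in the main analysis and 1 (Sox7) without the low-count filter and with DESeq2, and ran from 0 to 1 with each library left out. Where a library was left out, Sox7 passed the filter through WT libraries only. The median of the 7 tested members (0.87, the value of Gata6) ran from 0.72 without WT B to 1.00 without WT C. Over the related lists together, 49 genes were called, and 41 to 50 with each library left out. Of the ligand and receptor list, 6 genes were called lower, against 2 with scaling by library size alone and 2 to 5 with each library left out (2 without WT B, 3 without WT A or WT C). Correcting for transcript length and GC turned the sign of 4 genes: Fgfr1 to -0.0625 and Foxh1 to 0.0176, not called there, Tfcp2l1 to -0.1777, called lower, and Smad4 to -0.0215. Values near 0 changed sign without a call: Tdgf1 and Smad4 were -0.0213 and -0.0149 with RLE size factors and -0.0225 and -0.0161 with DESeq2, Smad4 was -0.0037 at equal depth, and with a library left out values ran from -0.0180 to 0.0092 for Tdgf1 and from -0.0106 to 0.0126 for Smad4. Of 598 values of 40 other list and marker genes over the alternatives, 27 lost their call, in Fgfr2, Foxh1, Tfcp2l1, Amn, Smad2, Pou5f1 and Tbx3; the cause was not tested.

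Replicate letters did not pair the libraries: correlations of same-letter deviations from the group means were -0.07 for A, 0.01 for B and 0.09 for C, and 3 of 6 libraries correlated best with their own letter. With the letter as a replicate block the number of members called was again 4, all higher, and the members' median was 0.86. Fgfr2 then missed the threshold, with 0.0541 as its adjusted p in edgeR. Low counts limit the precision for Foxa2, Gata6 and Sox7, which had at most 19 in any library. The unknown use of strand in counting limits the members and list genes that overlap antisense genes.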
